A study of Mus musculus with 36 samples.

Results

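Pax5 is the transcription factor that commits lymphoid progenitors to the B cell lineage. It binds DNA through its paired domain, activates genes of the pre-B cell receptor (pre-BCR) and its signaling chain, such as Cd79a and Blnk, and represses genes of other lineages. The lysine K198 of Pax5 can carry an acetyl group, and a substitution stands in for either state. In K198R an arginine keeps the positive charge and cannot be acetylated, which mimics the deacetylated protein. In K198Q a glutamine removes the charge, which mimics the acetylated protein.

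The transcriptome of Pax5-/- pro-B cells that expressed Pax5 K198R was compared with that of Pax5-/- pro-B cells that expressed wild-type Pax5 (Wt), to ask how expression differs when K198 cannot be acetylated. A gene was taken if it reached 10 normalized counts in 2 or more of the 4 K198R and Wt libraries, which left 12910 of the 35896 genes of the table. The last gene inside this limit was Rdh1, with a second highest value of 10.01, and the first outside was Tshz3, with 9.98. All cells lacked Pax5 of their own (Pax5-/-, C57BL/6 background) and were infected with a retrovirus that carried a selection marker and either no insert (EV, empty vector), wild-type Pax5, K198Q or K198R, with 2 libraries each. They were grown on inactivated OP9 stromal feeder cells with IL-7, SCF and FLT3-L and sorted for human CD4, the marker. The sample labels call them cultured bone marrow pro-B cells, whereas the study's methods describe fetal liver as the source of Pax5-/- progenitors. The methods add that in experiments with mice a replicate was 1 mouse and that sequencing replicates were made on different days. They do not give the fetal stage or say whether a retroviral culture counts as such a replicate, so the p-values measure the spread between these libraries, which may be partly technical.

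The 8 libraries were of similar depth after normalization, with sums between 28865461 and 30520853 normalized counts and between 12559 and 12895 genes at 10 or more. All 12 markers of early B cells that were looked up (Ptprc, Cd79a, Cd79b, Igll1, Vpreb1a, Vpreb3, Ebf1, Il7r, Kit, Rag1, Rag2 and Dntt) passed the filter. Dntt, which encodes the polymerase that adds bases at V(D)J joints, was low, with 19 and 20.3 normalized counts in the Wt and 12.5 and 5 in the K198R libraries. The 2 K198R libraries lay further apart than those of any other group (distance of 68.4 on the log2 scale over the genes tested, against 57.2 for Wt, 56.8 for EV and 52.9 for K198Q), and this was as large as the distance of 67.2 between the K198R and Wt means.

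The amount of Pax5 transcript was not equal in the groups. Pax5 (chromosome 4, 44524757 to 44710487, minus strand, mm10) was counted at 2201 and 2103 in the EV libraries, 6458 and 6152 in the Wt libraries, 8918 and 8963 in the K198Q libraries and 21162 and 16609 in the K198R libraries. The groups did not overlap, and the K198R libraries were the highest. The K198R mean was 3-fold the Wt mean (18886 ± 3220 against 6305 ± 217, SD, n = 2; log2 fold change 1.57, SE 0.118, limma adjusted p = 0.00302). These counts do not separate the transcript of the retrovirus from that of the disrupted gene, which the EV libraries also held. Every difference described here is therefore one between cells that differed both in the form of Pax5 and in the amount of its transcript, and the 2 cannot be told apart in these libraries. In bulk RNA, fewer cells that express a gene and less RNA per cell cannot be told apart either.

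**Figure D1:**
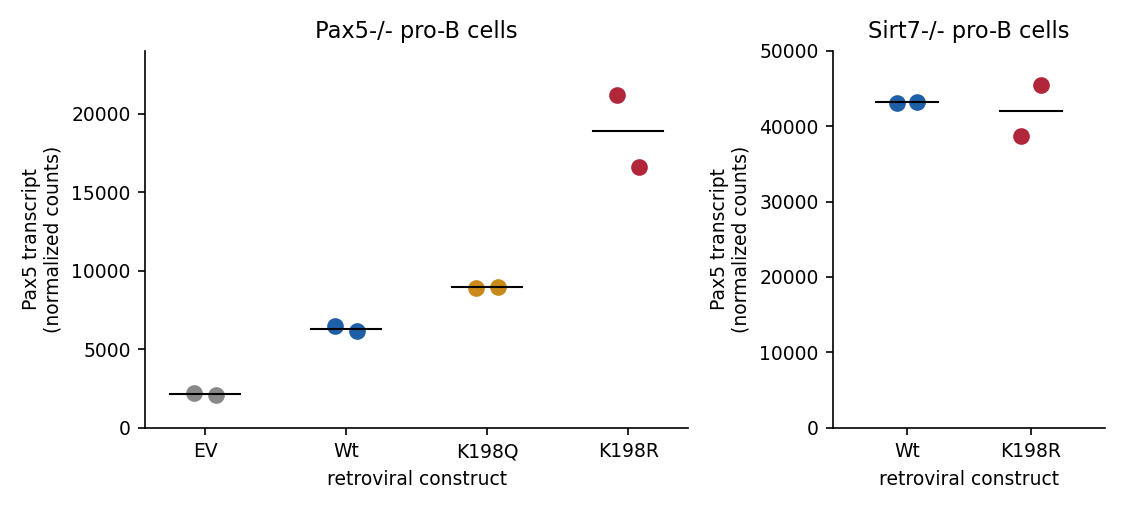
Pax5 transcript in normalized counts (vertical axis) for each library, by retroviral construct, in Pax5-/- pro-B cells (left) and Sirt7-/- pro-B cells (right); points are libraries and lines are group means. The K198R libraries of the Pax5-/- cells (21162 and 16609) lie above all others of that table. In the Sirt7-/- cells the K198R libraries (38690 and 45426) lie on either side of the Wt libraries. The empty vector libraries of the Sirt7-/- cells (25995 and 37113) are not drawn. The 2 tables were normalized separately, so their levels are not comparable.

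Between K198R and Wt, 105 genes were called higher (0.813% of the 12910 tested) and 282 were called lower (2.18%) by limma at an adjusted p below 0.05. With a log2 fold change of at least 1.5 in addition, 38 genes (0.294%) were higher and 177 (1.37%) were lower. The median log2 fold change was 1.11 among the higher genes and 1.79 in size among the lower genes, against 0.01 over all genes tested. At an unadjusted p below 0.05, 1659 genes (12.9%) differed. With the replicate number as a block, 344 genes were higher (2.66%) and 668 lower (5.17%), among them all 387 genes called without it. The spread was estimated from all 8 libraries: a fit of the 4 K198R and Wt libraries alone called 20 higher and 21 lower. The number of calls also changed when any 1 of the 4 libraries was left out. Leaving out a library changes both its group mean and the spread, which the groups of the fit share. Such counts therefore do not show on which libraries the calls rest. A permutation of 2 against 2 libraries cannot give an exact two-sided p below 0.33, so no single gene was tested in that way.

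**Figure D2:**
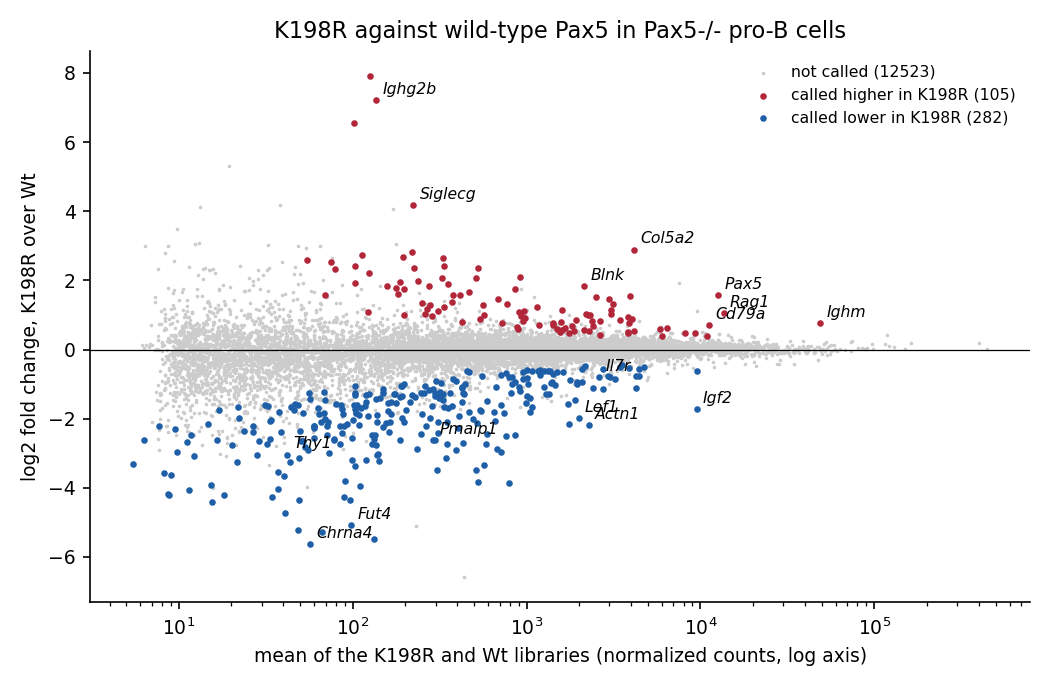
Log2 fold change of K198R over Wt (vertical axis) against the mean of the 4 libraries (horizontal log axis, normalized counts) for the 12910 genes tested in Pax5-/- pro-B cells; red, 105 called higher; blue, 282 called lower; grey, not called. Blue points outnumber red ones, Ighm is the red point with the highest mean, and the highest red point is the gene model Gm45062, which is not labelled.

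Genes of the pre-BCR and of B cell signaling were among the higher ones. Of 23 listed and tested, 7 were called higher (Siglecg, Bank1, Blnk, Ighm, Cd79a, Vpreb3 and Btk), 1 was called lower (Cd72) and 15 were not called, with a median log2 fold change of 0.37 against 0.01 over all genes. Over all genes tested, 0.813% were called higher and 2.18% lower. With the replicate block, 12 were higher and 2 lower, beside 2.66% and 5.17% of all genes. Blnk (chromosome 19, 40928927 to 40994535, minus strand) encodes the adaptor that links the pre-BCR to its downstream enzymes. It was counted at 2.56 and 4.9 in EV, 915 and 954 in Wt, 547 and 397 in K198Q and 3586 and 3133 in K198R. The K198R libraries were thus the highest and the EV libraries close to 0, with the K198Q libraries below both Wt libraries. The K198R mean was 3.6-fold the Wt mean (log2 fold change 1.84, SE 0.269, adjusted p = 0.0152 by limma).

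Cd79a (chromosome 7, 24897381 to 24902197, plus strand), the Igα signaling chain of the receptor, was counted at 7561 and 9491 in Wt and 13596 and 14080 in K198R, with 2282 and 2247 in EV and 5321 and 5140 in K198Q (log2 fold change 0.71, SE 0.113, adjusted p = 0.0203 by limma). The order of the 4 groups was the same as for Blnk, over a narrower range. Ighm, the constant region of the μ heavy chain, stood at 37847 and 34802 in Wt and 61438 and 62013 in K198R. Its EV (35821 and 39098) and K198Q libraries (34316 and 33233) were at the level of Wt, so that the K198R libraries alone stood apart (log2 fold change 0.77, adjusted p = 0.01 by limma).

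Siglecg (chromosome 7, 43408204 to 43418358, plus strand) encodes an inhibitory lectin of the B cell surface. It was counted at 23.7 and 32 in EV, 25.3 and 19.6 in Wt, 21.7 and 20.8 in K198Q and 453 and 394 in K198R, an 18.9-fold higher mean than in Wt (log2 fold change 4.19, SE 0.3, adjusted p = 0.00302 by limma). Bank1, a scaffold of B cell receptor signaling, was at 203 and 76.4 in EV, 75.8 and 70.5 in Wt, 87.5 and 65.7 in K198Q and 408 and 347 in K198R (log2 fold change 2.35, adjusted p = 0.0301). Cd72, an inhibitory coreceptor, went the other way, from 418 and 428 in Wt to 197 and 141 in K198R (log2 fold change -1.34, adjusted p = 0.0184). For Siglecg the Wt and EV libraries overlapped, and for Bank1 both EV libraries lay above both Wt libraries, unlike for Blnk and Cd79a.

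Of the genes known to be activated by Pax5, 8 of 23 tested were called higher (Siglecg, Bcar3, Cd55, Blnk, Spib, Ikzf3, Cd79a and Vpreb3) and 2 were called lower (Lef1 and Cd72), with a median log2 fold change of 0.78, beside 0.813% and 2.18% of all genes called. With the replicate block, 14 were higher and 2 lower, beside 2.66% and 5.17% of all genes. Bcar3, an adaptor of tyrosine kinase signaling, stood at 104 and 72.5 in Wt and 730 and 414 in K198R (log2 fold change 2.65, SE 0.365, adjusted p = 0.0129 by limma). Cd55, a regulator of complement on the cell surface, was listed at 0 in both EV libraries, at 34.4 and 52.4 in Wt, 28.3 and 22.8 in K198Q and 176 and 231 in K198R (log2 fold change 2.22, adjusted p = 0.0284).

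For Blnk, Cd79a, Rag1 and Ikzf3, both K198Q libraries lay below both Wt libraries. The surrogate light chain genes Vpreb1a (13616 and 15162 in K198R, 12726 and 15358 in Wt) and Vpreb1b had log2 fold changes of 0.04 and 0.01. Their near-identical sequences may share reads.

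Transcription factors of early B cells and the recombination genes gave smaller numbers. Of 25 early B lineage factors tested, 4 were higher, namely Bcl11a, Spib, Ikzf3 and Foxo1, and Lef1 was lower, with a median log2 fold change of 0.12, where 0.813% of all genes were higher and 2.18% lower. With the replicate block, 5 were higher and 3 lower (2.66% and 5.17% of all genes). Spib, an Ets family factor, was counted at 1126 and 855 in Wt and 2487 and 1907 in K198R (log2 fold change 1.15, adjusted p = 0.0262 by limma), and its EV (1190 and 1110) and K198Q libraries (1389 and 1049) lay around the Wt values. Ikzf3, which encodes the Ikaros family factor Aiolos, was at 123 and 127 in EV, 627 and 639 in Wt, 364 and 420 in K198Q and 1272 and 1201 in K198R (log2 fold change 0.96, adjusted p = 0.0143). Foxo1, a factor required for Il7r and Rag expression, was at 3420 and 3329 in Wt and 4914 and 4901 in K198R (log2 fold change 0.54, adjusted p = 0.0183).

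Of 16 genes of V(D)J recombination and end joining, only Rag1 and Foxo1 were called, both higher (0.813% of all genes), and 4 were called higher with the replicate block (2.66% of all genes). Rag1 (chromosome 2, 101638282 to 101649501, minus strand), the catalytic subunit of the recombinase, was counted at 1443 and 2289 in EV, 8938 and 8704 in Wt, 7230 and 5909 in K198Q and 18291 and 18398 in K198R. The 2 libraries of each Pax5 form lay close together for this gene, and the K198R mean was 2.08-fold the Wt mean (log2 fold change 1.06, SE 0.199, adjusted p = 0.0364 by limma). Its partner Rag2 was at 862 and 709 in Wt and 1405 and 1413 in K198R, with no overlap but an adjusted p of 0.0971 by limma and of 0.0455 with the replicate block.

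**Figure D3:**
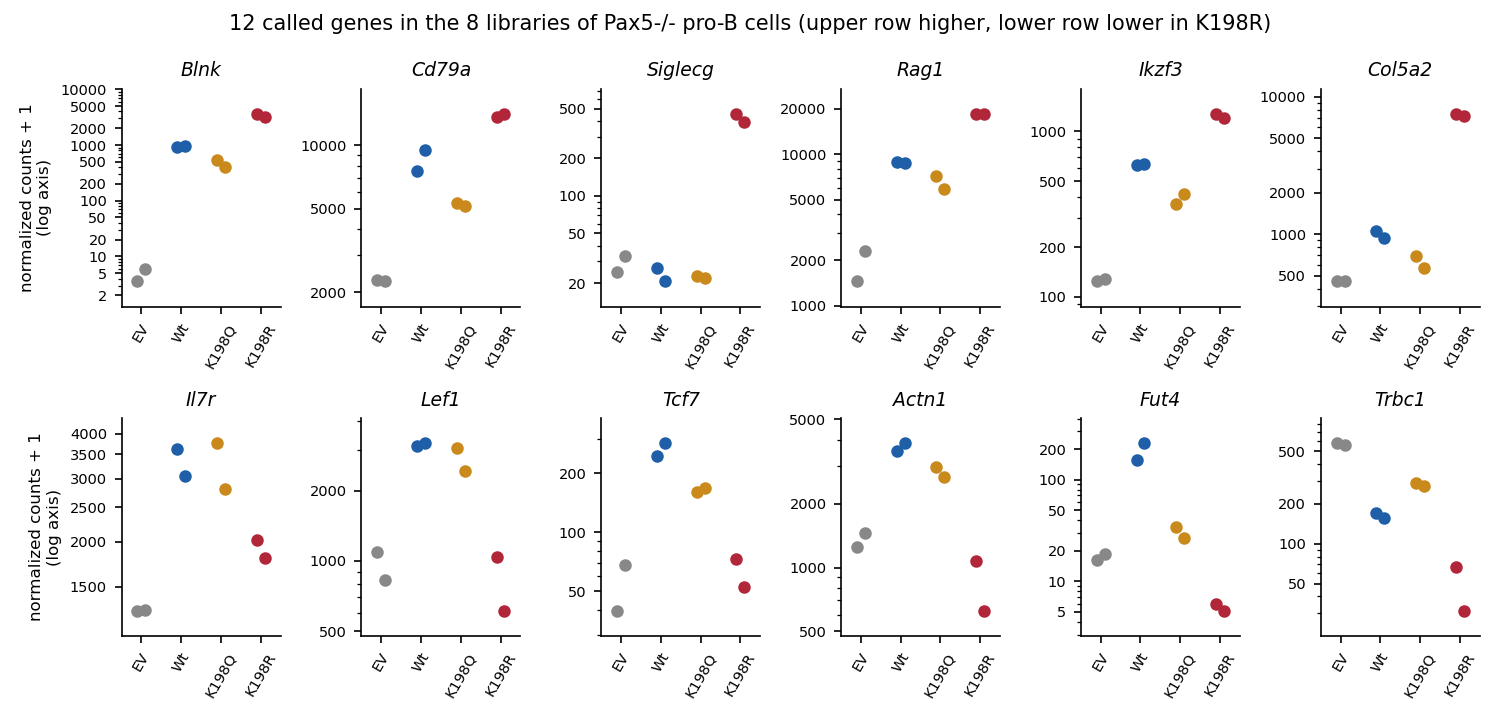
Normalized counts plus 1 (vertical log axis, its range set for each gene) in the 8 libraries of Pax5-/- pro-B cells by retroviral construct, for 6 genes called higher (upper row) and 6 called lower (lower row) in K198R against Wt; each point is a library. In the upper row both K198R libraries lie above all others; in the lower row they lie below both Wt libraries, and for Il7r they lie above both EV libraries.

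Lef1 and Tcf7, the paired HMG-box factors of the Wnt pathway, were lower in K198R. Lef1 (chromosome 3, 131110471 to 131224356, plus strand) was counted at 1092 and 830 in EV, 3114 and 3196 in Wt, 3038 and 2430 in K198Q and 1042 and 611 in K198R. The K198R libraries were near the EV libraries, and the Wt and K198Q libraries were high (log2 fold change -1.98, SE 0.251, adjusted p = 0.0104 by limma). Tcf7 stood at 38.9 and 67.4 in EV, 246 and 284 in Wt, 160 and 167 in K198Q and 71.9 and 51.4 in K198R (log2 fold change -2.1, adjusted p = 0.0156).

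Of 22 genes tested of the IL-7 receptor and STAT pathway, 1 was called, Il7r, which was lower, beside 2.18% of all genes. With the replicate block 2 were higher and 2 lower, beside 2.66% and 5.17% of all genes. Il7r encodes the receptor chain through which IL-7 sustains pro-B cells. It was at 1286 and 1293 in EV, 3614 and 3058 in Wt, 3758 and 2796 in K198Q and 2019 and 1800 in K198R. The K198R libraries lay between EV and the other 2 Pax5 forms, at 0.572 of the Wt mean (log2 fold change -0.8, SE 0.154, adjusted p = 0.0387 by limma). Pim1 (22388 and 19646 in Wt, 20812 and 16224 in K198R) and Socs2 (21358 and 16922, 19208 and 14640), both targets of STAT5, had log2 fold changes of -0.19 and -0.18 with overlapping groups. The other chain of the receptor, Il2rg, had a log2 fold change of 0.01.

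Of the lists of other lineages, the T cell and the myeloid markers each had 3 of 15 tested members called lower and the NK cell markers 1 of 10, beside 2.18% of all genes tested. The dendritic cell and erythroid lists had none called lower. The medians of the NK cell, myeloid and T cell lists were -0.82, -0.6 and -0.36, that of the dendritic cell list was 0 and that of the erythroid list 0.93. With a replicate left out, the first 3 medians ranged from -1.4 to -0.14, from -1.17 to -0.17 and from -0.59 to -0.28, and the erythroid median was -0.62 with a filter of 50 normalized counts. Of the 21 known Pax5-repressed genes tested, 1 was called lower, Nkg7, and the median log2 fold change was -0.29. With the replicate block, 6 were lower and 1 higher, where 5.17% of all genes were lower and 2.66% higher. Nkg7, a gene of cytotoxic granules, was at 468 and 569 in EV, 260 and 303 in K198Q, 192 and 219 in Wt and 109 and 77.7 in K198R, and was lower in K198R than in Wt (log2 fold change -1.15, SE 0.223, adjusted p = 0.0402 by limma). Il2rb, a receptor chain of IL-2 and IL-15, had the same order of groups (955 and 914, 567 and 524, 230 and 240, 144 and 80.4) without passing the threshold (adjusted p = 0.0678, and 0.0191 with the block). Among 10 NK cell and cytotoxic markers, only Nkg7 was called, and 3 were called lower with the block; Ncr1 and Gzmb were listed at 0 in all 8 libraries, and the summed level of the list was 2018 and 1619 in Wt and 1671 and 792 in K198R, with Id2 its most abundant gene.

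Of 15 T cell markers, 3 were lower (Thy1, which passed the filter through the Wt libraries alone, Tcf7 and Trbc1) and 1 was higher, Rag1, which B cell progenitors use as well. With the replicate block, 4 were lower and 1 higher, beside 5.17% and 2.66% of all genes. Trbc1, the constant region of the T cell receptor β chain, stood at 572 and 551 in EV, 289 and 273 in K198Q, 169 and 156 in Wt and 65.8 and 30.2 in K198R (log2 fold change -1.84, adjusted p = 0.0297 by limma). The defining T cell genes Cd3e, Cd3d, Cd8a, Cd4 and Bcl11b were at or below 7.9 in all 8 libraries, and the summed level of the list was 23291 and 23982 in Wt and 30154 and 28980 in K198R. Rag1 was the largest part of it in these 4 libraries, and the other 14 genes, led by Notch1, summed to 14353 and 15277 in Wt and 11863 and 10582 in K198R. Of 15 myeloid markers, Prtn3 (129 and 113 in Wt, 41.8 and 38 in K198R), Cebpb (234 and 263, 120 and 85.3) and Fcgr3 (769 and 1041, 493 and 359) were lower and none was higher, with 5 lower with the block. Elane, Ms4a3, S100a8 and S100a9 were at or below 1 in all 8 libraries, and the list summed to 16260 and 14135 in Wt and 17151 and 9341 in K198R, with Cd33 its most abundant gene.

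Markers of feeder cells were also counted. Of 17 stromal markers tested, Thy1 and Pdgfrb were lower (Pdgfrb at 216 and 260 in Wt, 101 and 63.5 in K198R) and none was higher. Over all genes tested, 2.18% were called lower. Thy1 had passed the filter through the Wt libraries alone. The list, led by Fn1, summed to 3559 and 9515 in the Wt libraries and 4063 and 5657 in the K198R libraries, so that replicate 2 held more than replicate 1 in both groups, as in EV (4128 and 5652) and K198Q (4270 and 7318). Dcn and Lum were listed at 0 throughout. The part of feeder cell RNA in the results was not tested.

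Interferon-stimulated genes differed between the K198R libraries. Of 20 tested, 18 lay above both Wt libraries in K198R replicate 1 (37.4% of all genes tested) and 5 did so in replicate 2 (38.1% of all genes). The value was higher in replicate 1 than in replicate 2 for 19 (52.6% of all genes), and the list summed to 18370 and 10068 in the K198R and to 12865 and 12231 in the Wt libraries. Rsad2, an antiviral enzyme, was at 627.3 in K198R replicate 1 and at 42.9 in replicate 2, against 23.7 and 15 in Wt. None of the 20 was called, 2 were called higher with the replicate block (2.66% of all genes), and the median of 0.28 was -0.27 without K198R replicate 1 and 1.25 without replicate 2. Without K198R replicate 1, the comparison gave 93 higher and 494 lower genes. The part of this difference in other results was not tested.

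Lists of growth and signaling genes were counted in the same way. In DNA replication and mitosis (24 tested), Myc family and G1 regulators (22), ERK feedback and immediate early genes (21) and acetylation and deacetylation enzymes (20) none was called by limma, with medians of 0.13, 0.04, 0.02 and 0.04. At the shares called over all genes tested (0.813% higher, 2.18% lower), lists of this size would hold few calls, so these counts do not set the lists apart. With the replicate block, which called 2.66% of all genes higher and 5.17% lower, the Myc family list held 3 higher and 3 lower genes and the other lists 1, 2 and 1 called genes in the order given. Mki67, a proliferation marker, was at 22438 and 26538 in Wt and 21297 and 34885 in K198R, and Ep300, the acetyltransferase p300, at 4971 and 5060 in Wt and 5149 and 5461 in K198R. Of 15 BCL2 family genes, Pmaip1, which encodes the pro-apoptotic protein Noxa, was lower (426 and 573 in Wt, 109 and 58.5 in K198R; log2 fold change -2.61, SE 0.302, adjusted p = 0.00853) and Bok was higher (195 and 194, 365 and 393; 0.96, adjusted p = 0.0415). With the block, 2 of the 15 were higher and 1 lower.

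**Figure D4:**
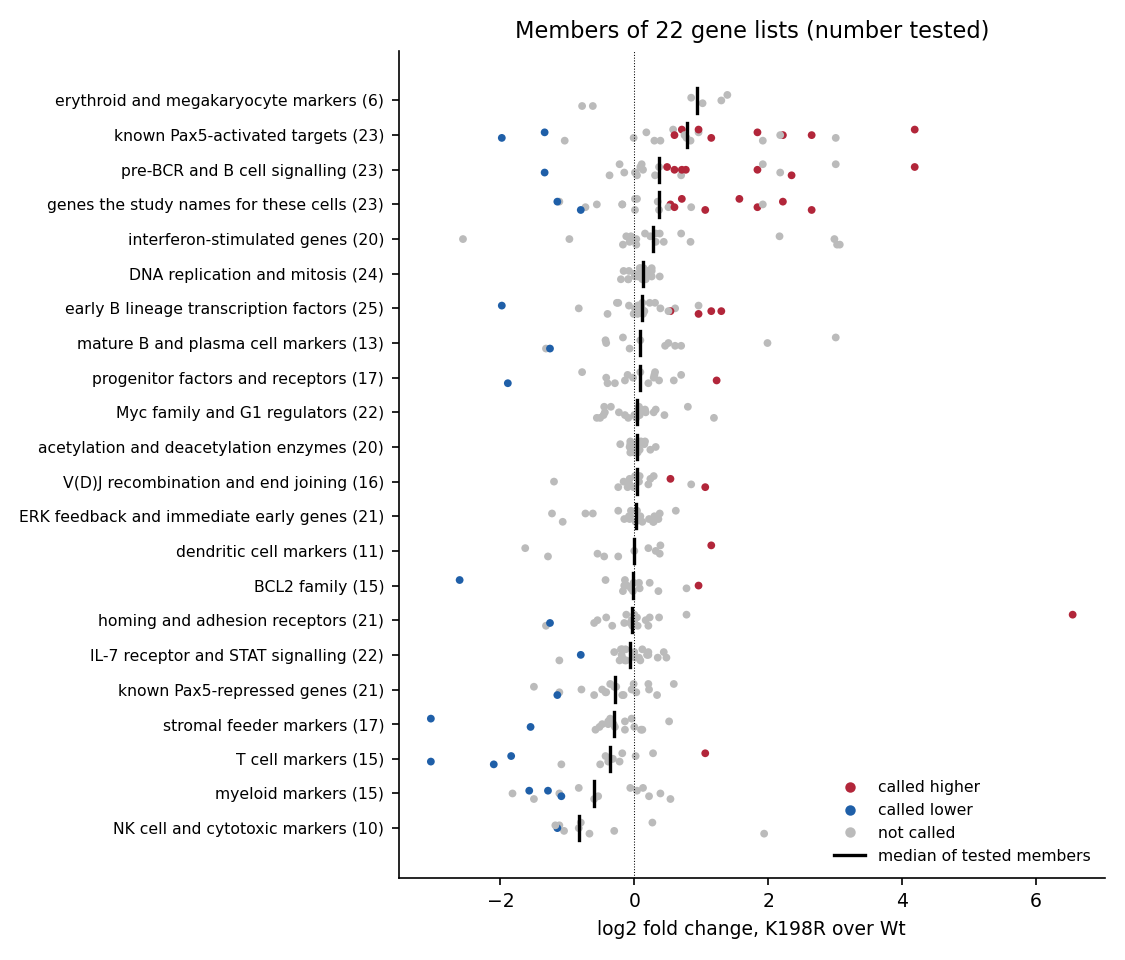
Log2 fold change of K198R over Wt (horizontal axis) for each tested member of 22 gene lists (rows, with the number tested), ordered by median; red, called higher; blue, called lower; grey, not called; black bar, median. The known Pax5-activated targets (median 0.78) and the pre-BCR list (0.37) hold 8 and 7 red points, and the NK cell (-0.82) and myeloid lists (-0.6) have the lowest medians; the erythroid list (0.93) has 6 tested members and none called.

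The remaining lists had at most 2 called members without the replicate block. Over all genes tested, 0.813% were called higher and 2.18% lower without the block, and 2.66% and 5.17% with it. Among 21 homing and adhesion receptors, 1 was called higher and 1 lower, and 3 and 1 with the replicate block. Cxcr5, the receptor for the follicular chemokine CXCL13, was lower (1207 and 1098, 567 and 406; log2 fold change -1.26, adjusted p = 0.0125). Cxcr5 was also the 1 called gene of 13 mature B and plasma cell markers, where 3 were higher and 2 lower with the block. Among 17 progenitor factors and receptors, Hoxa10 was higher (214 and 189 in Wt, 445 and 501 in K198R) and Cd27 lower (173 and 168, 58.6 and 35.2), and 2 were higher and 3 lower with the block. Of 11 dendritic cell markers Spib was the 1 called gene, with 2 higher and 1 lower with the block, and of 6 erythroid and 4 sex-linked transcripts none was called with or without it.

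The largest changes included genes outside these lists. Ighg2b, the constant region of the γ2b heavy chain, was at 337 and 205 in the K198R libraries and at most 2.15 in the other 6. It passed the filter on low values through the K198R libraries alone, so it had to differ and no p is given. Col5a2, a fibrillar collagen chain, was at 459 and 452 in EV, 1057 and 929 in Wt, 693 and 562 in K198Q and 7463 and 7260 in K198R, with a log2 fold change of 2.89 (SE 0.13, adjusted p = 0.000375). Mt1, a metallothionein that binds zinc, was at 45.3 and 62.3 in Wt and 333 and 438 in K198R, C4bp, which encodes a complement regulator, at 25.3 and 32 and 168 and 230, and Pgf, placental growth factor, at 68.3 and 34 and 458 and 214. Of the 7 named genes that stayed called whichever of the 4 libraries was left out, 4 (Col5a2, Mt1, Siglecg and Pax5) had passed the filter in both groups. Ighg2b, Chrna4 and Fut4 had passed through 1 group alone. Many named genes were chosen for the size of their change, so these 7 are not a fair sample of the called genes. Pax5 is also the gene that the retrovirus carried.

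The 8 lower genes with the largest fold changes were at low levels in the K198R libraries. They were chosen for that size. Of all 282 lower genes, 38 (13.5%) passed the filter through the Wt libraries alone, against 182 of all genes tested (1.41%). Of these 8, all but Zfp518a did so, and no p is given for them. Chrna4, a subunit of nicotinic acetylcholine receptors, was at 51.7 and 46.6 in EV, 110 and 115 in Wt, 25.9 and 18.2 in K198Q and 1.76 and 0.897 in K198R. Fut4, a fucosyltransferase, was at 155 and 227 in Wt, at most 33.1 in EV and K198Q and 5.02 and 4.15 in K198R. Zfp518a (191 and 325 in Wt, 10.2 and 1.84 in K198R), Rxfp1 (110 and 151, 2.8 and 1.93), Myzap (80.6 and 111, 2.83 and 0.717), Slc29a4 (52.4 and 107, 3.03 and 1.04), Xk (19.5 and 42, 0.984 and 0) and Nckap5 (113 and 72.9, 9.56 and 0.923) were also lower in K198R than in Wt. The other groups did not share 1 order: the EV libraries overlapped those of K198R for Rxfp1 (5.89 and 2 in EV), Slc29a4 (3.01 and 5.92) and Nckap5 (6.13 and 3.6), and lay above them for the other 5, and K198Q was at 73.7 and 53.8 for Rxfp1 and at most 33.1 for the others. At such levels a fold change depends on the pseudocount, so none is given for these genes.

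Lower genes at high levels were Igf2, Dpp4, Gfra1, Actn1 and Lef1. Igf2, insulin-like growth factor 2, was at 10067 and 19466 in Wt, 5004 and 3607 in K198R and up to 32252 in K198Q (log2 fold change -1.72, SE 0.339, adjusted p = 0.0417 by limma). Actn1, the cytoskeletal protein α-actinin, was at 1254 and 1450 in EV, 3557 and 3847 in Wt, 2967 and 2683 in K198Q and 1068 and 625 in K198R (-2.18, adjusted p = 0.00622). Gfra1, a coreceptor for GDNF, was at 5386 and 6389 in Wt and 2775 and 2611 in K198R, and Dpp4, the surface peptidase CD26, at 10772 and 12266 and 6959 and 7997.

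The other libraries show which group stood apart. For 100 of the 105 higher genes both K198R libraries lay above all 6 others (1358 of all 12910 genes, 10.5%), and for 18 both Wt libraries lay below all 6 (1.95% of all genes). For 221 of the 282 lower genes both K198R libraries lay below all 6 others (10.7% of all genes), and for 92 both Wt libraries lay above all 6 (3.30% of all genes). The choice of called genes fixes part of this order, so these counts are a description. Through the Wt libraries alone, 38 of the lower genes (13.5%) had passed the filter, beside 182 of all genes (1.41%). Through the K198R libraries alone, 3 of the higher genes (2.86%) had passed it, beside 63 of all genes (0.488%). Among the named genes these were Chrna4, Fut4, Myzap, Nckap5, Rxfp1, Slc29a4, Thy1 and Xk for Wt and Ighg2b for K198R.

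Pax5 binding near these genes was taken from the peak lists of chromatin immunoprecipitation in the same kind of cells, called for each replicate over input. The lists held 10646 and 11830 peaks for Wt, 3750 and 3957 for K198Q and 12158 and 13997 for K198R. A K198R peak found in both replicates lay within 10 kb of the start of 48.1% of the genes called higher (50 of 104 with a start in the annotation; 95% Wilson interval 38.7 to 57.6%), 27.4% of those called lower (77 of 281; 22.5 to 32.9%) and 42.4% of all genes tested. For Wt peaks the shares were 37.5% (28.8 to 47.1%), 24.9% (20.2 to 30.3%) and 36.2%, and for K198Q peaks 16.3%, 7.83% and 12.8%. The interval of the higher genes thus held the share of all genes for each form, whereas that of the lower genes lay below it. The intervals cover counting error only, and the sets of genes were not matched for expression level. A K198R peak in both replicates with no Wt peak in either lay near 4 higher genes (3.85%), 9 lower genes (3.2%) and 2.84% of all genes.

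**Figure D5:**
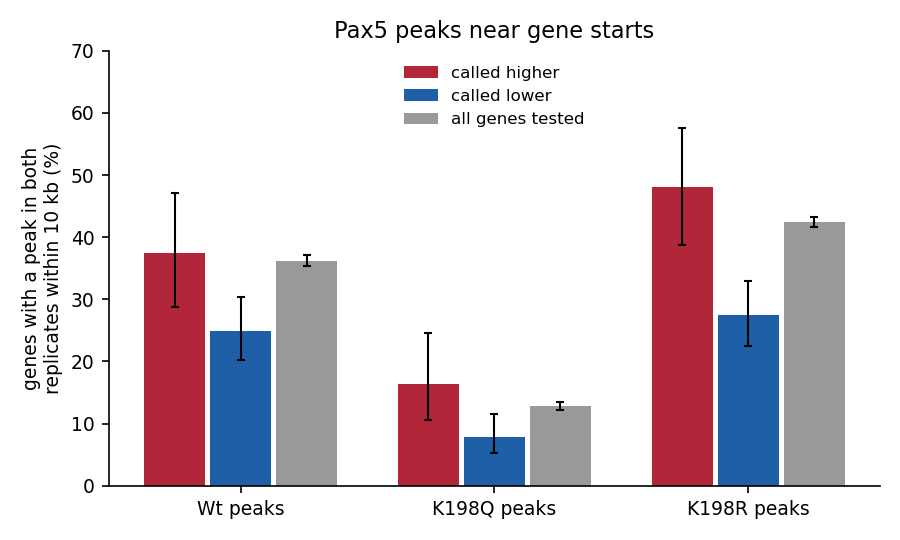
Percent of genes (vertical axis) with a Pax5 peak in both replicates within 10 kb of the gene start, by form of Pax5, for the genes called higher (red, n = 104), called lower (blue, n = 281) and all genes tested (grey) in K198R against Wt; bars are shares and lines are 95% Wilson intervals. Genes called lower have the smallest share for each form (24.9% for Wt, 7.83% for K198Q and 27.4% for K198R).

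The sequence under the K198R summits is shown for 5 of the 47 named genes that had one, 3 called higher and 2 called lower, as 100-bp windows around the summit of the strongest peak within 10 kb in the K198R replicate 1 list (RefSeq, GRCm38.p6, plus strand). The letters searched on both strands were GCGTGAC, letters of the Pax5 motif, and GCGTNAC, the same with any base at position 5. The second contains the first, and a match to it alone, such as GCGTCAC, differs from the first at that base. GCGTNAC is in capitals. It was found in 5 of the 47 windows, so that the windows shown, 2 of which hold it, are not a fair sample of the 47. Spib (chr7:44536369-44536468, in an intron of Pold1) held GCGTGAC, and Cebpb (chr2:167688647-167688746, in an intron of Tmem189) held GCGTCAC. The windows of Siglecg (chr7:43408411-43408510, in its own intron), Rag1 (chr2:101650739-101650838) and Lef1 (chr3:131107321-131107420), the last 2 outside annotated genes, held neither.
Spib: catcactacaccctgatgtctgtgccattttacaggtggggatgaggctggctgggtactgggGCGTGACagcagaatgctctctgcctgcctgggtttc
Siglecg: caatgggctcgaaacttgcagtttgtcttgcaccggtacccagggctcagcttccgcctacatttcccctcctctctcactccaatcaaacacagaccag
Rag1: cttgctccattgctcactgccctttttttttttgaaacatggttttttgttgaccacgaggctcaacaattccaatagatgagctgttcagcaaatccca
Lef1: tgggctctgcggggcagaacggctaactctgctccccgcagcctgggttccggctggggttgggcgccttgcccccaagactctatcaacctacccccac
Cebpb: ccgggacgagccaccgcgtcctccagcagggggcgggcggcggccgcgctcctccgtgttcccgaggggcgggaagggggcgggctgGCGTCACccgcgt
A peak near Spib was listed for all 3 forms (fold enrichment over input of 16 and 8.57 in Wt, 9.02 and 11.4 in K198Q and 12 and 14.5 in K198R for the strongest peak within 10 kb), and a peak near Cebpb for K198R alone (4.42 and 5.15). Near Siglecg, a peak was listed for K198R replicate 1 (6.73) and Wt replicate 2 (5.28) and in no other list. GCGTNAC was in 5.7% and 5.39% of all windows of the K198R lists, 5.94% and 6% of those of Wt and 8.01% and 7.92% of those of K198Q. It was in the promoters (250 bases before to 50 after the start, RefSeq) of 7 of 78 higher genes (8.97%), 15 of 222 lower genes (6.76%) and 11.4% of the genes tested that had a promoter sequence. A match is a description of letters, not of binding.

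The same 2 forms of Pax5 were also expressed in Sirt7-/- pro-B cells, which lack the deacetylase SIRT7 and have their own Pax5 gene. By the methods, these mice were adult and, where not stated otherwise, of the 129Sv strain, whereas Pax5-/- cells were from C57BL/6 fetuses, so genotype, strain and age cannot be told apart between the 2 kinds of cells. The libraries were normalized separately. There the Pax5 transcript was 43024 and 43260 in Wt and 38690 and 45426 in K198R (log2 fold change -0.04, SE 0.177, adjusted p = 0.999 by limma). The K198R libraries lay on either side of the Wt libraries. With empty vector, Sirt7-/- cells already held 25995 and 37113. These counts do not separate the transcript of the retrovirus from that of the cells' own gene. The amount of each introduced form in these cells is therefore not known. Of 13235 genes tested, 59 (0.446%) were called, 18 higher (0.136%) and 41 lower (0.310%), and 1161 (8.77%) had an unadjusted p below 0.05. These 59 calls fell to between 2 and 13 when any 1 of the 4 libraries was left out.

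Most genes called in Pax5-/- cells were not called in Sirt7-/- cells. Of the 105 higher genes, 103 were tested there, 51 with a log2 fold change above 0 and 52 below, with a median of 0.00 against 1.11 in Pax5-/- cells. Of the 282 lower genes, 233 were tested, 129 below 0 and 104 above, with a median of -0.06 against -1.72. Of all genes tested there, 51.9% lay above 0. At an unadjusted p below 0.05 in Sirt7-/- cells, 42 of the lower genes were lower and 17 higher, and 16 of the higher genes were higher and 22 lower, beside 564 higher and 597 lower among all genes tested. In the same direction, 1 of the higher genes (Mt1) and 6 of the lower genes (Dpp4, Il7r, Il33, Capn2, Rtn4rl2 and Slc16a14) were called in both, and 2 higher genes (Vpreb3 and Ifi209) were called lower there. The genes Il33, Capn2, Rtn4rl2, Slc16a14 and Ifi209, and Btk above, lie outside the rule for named genes and were chosen after their values were seen, as was Gm45062.

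Il7r was called lower in both kinds of cells. In Sirt7-/- cells it was at 5301 and 5873 in Wt and 2431 and 2834 in K198R (log2 fold change -1.09, SE 0.117, adjusted p = 0.019 by limma), with no overlap. Mt1 was at 92.4 and 132 in Wt and 536 and 457 in K198R (2.15, adjusted p = 0.0245). In contrast, Siglecg had a log2 fold change of 0.03 there (8337 and 8902 in Wt, 7656 and 10137 in K198R), and Blnk of -0.33 (12903 and 10361, 9600 and 8783), neither called. The effects in the 2 kinds of cells were not tested against each other.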

How the data were processed

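Poly(A) RNA of Pax5-/- pro-B cells was sequenced by the authors and quantified with Salmon and Tximeta. The deposited values are normalized counts (unit here: signal), divided by DESeq2 size factors, without raw counts, so no count model was fitted and the depth in reads is unknown. The deposited peak lists (MACS2 over input, mm10, each replicate separately) gave fold enrichment ratios and −log10 q-values. The peak names inside the K198R replicate 2 list carry the number 3.

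Members and gene lists were chosen with earlier results of these data known. Values were tested as log2(value + 1) with limma 3.58.1 (R 4.3.3; trend, 4 groups of 2 libraries in 1 fit, Benjamini-Hochberg over 12910 genes, adjusted p below 0.05), after tests on simulated data. Fold changes on this scale understate changes of low genes. Named genes were Pax5, the genes the study names for these cells, per direction the 8 called genes with the largest log2 fold change and the 5 with the largest difference (libraries not overlapping, gene models and pseudogenes left out), and from each list up to 4 called members or, with fewer than 2 called, the 2 most abundant. Replicates were prepared on different days per the methods, and same-numbered libraries deviated together (correlations of 0.28 to 0.42 over genes), so list counts with the block are given where it moves them; that a number marks a day is not stated. Of 9658 rows without a symbol, 9273 took one from their gene ID. Gene starts were from GENCODE M21. Figures used matplotlib 3.10.9. Some genes are not reported here.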

Additional observations from a re-analysis of the deposited data

Results flagged for a closer look

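Of the 77 named genes tested in both tables, 16 (20.8%) had both K198R libraries on one side of both Wt libraries in Pax5-/- cells and on the other side in Sirt7-/- cells, and 15 of them are given here. Over all 12084 genes tested in both tables, 821 (6.79%) did so, and 954 (7.89%) separated in the same direction in both, as did 16 of the 77 named genes. Some named genes were chosen among those called in Pax5-/- cells, so their share is not comparable with that of all genes. The difference between the 2 kinds of cells was not tested. The following values are the log2 fold change of K198R over Wt in Sirt7-/- cells, with that in Pax5-/- cells after it. Genes higher in Pax5-/- cells were Vpreb3 (-1.1, 0.6), Cd55 (-0.94, 2.22), Foxo1 (-0.5, 0.54), Blnk (-0.33, 1.84), Rag1 (-1.96, 1.06), Col5a2 (-0.64, 2.89) and Ighm (-0.2, 0.77). Irf4 (-0.51, 0.51), Rag2 (-0.91, 0.85) and Cd79b (-0.34, 0.37) had the same signs without being called in Pax5-/- cells. Genes lower in Pax5-/- cells were Gfra1 (0.11, -1.12) and Actn1 (0.72, -2.18), and Zfp518a (0.25) and Nckap5 (1.11), for which the first value alone is given because their K198R levels in Pax5-/- cells (10.2 and 1.84, 9.56 and 0.923 normalized counts) leave a fold change that depends on the pseudocount. The value of Nckap5, at most 17.8 normalized counts in Sirt7-/- cells, depends on it too. Notch1 (0.45, -0.43) was not called in either. Vpreb3 was the only gene of these called in Sirt7-/- cells (limma adjusted p = 0.0343).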

How the results depend on the processing

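The deposited values hold no reads per gene, so the depth behind low values is unknown, and 2 libraries a group limit every comparison. No called gene changed sign under any alternative. For genes whose K198R and Wt libraries do not overlap, leaving out a library or changing the pseudocount cannot change the sign. The counts of genes called higher (105), higher by at least 1.5 (38), lower (282) and lower by at least 1.5 (177) became 20, 16, 21 and 19 with the 4 K198R and Wt libraries alone. With the replicate block they became 344, 63, 668 and 262, and 11 further named genes were called, among them Cd79b, Id2 and Rag2; the block removed no call. Without a variance trend 67 were higher. With each replicate left out in turn the counts ranged from 8 to 93, 8 to 36, 12 to 494 and 12 to 329. Pseudocounts, filters, rescaling and robust estimation kept the counts within 1.5 times. In Sirt7-/- cells the 59 calls became 3 and 2 without K198R replicates 1 and 2, and 13 and 13 without either Wt replicate. The cause was not tested.

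For genes called higher, the share with a K198R peak (48.1%) was 36.4% without the trend, 65% with 4 libraries, 63.5% for a peak in either replicate, 38.5% within 2 kb, 72.1% within 50 kb and 25 to 46.7% with a replicate left out, and that with a Wt peak (37.5%) was 50%, 55.8%, 26.9%, 66.3% and 25 to 38% from 4 libraries onward. For genes called lower, the K198R share (27.4%) was 21.7% at a −log10 q of at least 5, 14.3% with 4 libraries, 40.6% for either replicate, 19.6% within 2 kb, 48% within 50 kb and 8.33 to 26.9% with a replicate left out, and the Wt share (24.9%) was 19.2%, 19%, 41.3%, 15.7%, 44.1% and 23.6 to 27.5% in the same order. Over all genes tested, the K198R share was 35.6% at a −log10 q of at least 5, 60.5% for either replicate, 34.8% within 2 kb and 64% within 50 kb. The Wt share of all genes was 30.5%, 54.7%, 28.8% and 59.2% in the same order. The share of lower genes with the same direction in Sirt7-/- cells (55.4%) was 73.7% with 4 libraries and 50 to 81.8% with a replicate left out.

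Uncalled named genes near 0 changed sign with rescaling to the same sum, the same upper quartile or quantiles: Il2rg (-0.02, -0.01 and -0.02), Top2a (-0.03, -0.02 and -0.01), Vpreb1b (-0.03, -0.02 and -0.04), Vpreb1a (-0.01 with quantiles) and Stat2 (0 with the sum). With a replicate left out, the log2 fold change spanned 0 for uncalled genes: Ccnd2 -0.05 to 0.2, Ddx3y -0.09 to 0.03, Dusp2 -0.1 to 0.28, Dusp5 -0.17 to 0.06, Gbp7 -0.25 to 0.15, Hdac1 -0.2 to 0.09, Il2rg -0.17 to 0.19, Mki67 -0.2 to 0.52, Nfil3 -0.64 to 0.05, Socs2 -0.38 to 0.01, Stat2 -0.25 to 0.31, Top2a -0.42 to 0.43, Vpreb1a -0.1 to 0.18, Vpreb1b -0.19 to 0.21.

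Of the 23 list medians, 12 kept 1 sign with each replicate left out and 11 did not, among them the interferon list (-0.27 to 1.25), the stromal list (-0.98 to 0.33) and DNA replication and mitosis (-0.14 to 0.42). Those of the Pax5-activated and pre-BCR lists were 0.76 to 0.9 and 0.42 to 0.5.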

Other observations

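Several other called genes lie outside the lists. They were chosen after their values were seen. Trgc2, a constant region of the T cell receptor γ chain, was at 15 and 14 in EV, 1260 and 1717 in Wt, 141 and 96.5 in K198Q and 140 and 71.8 in K198R (log2 fold change -3.86, limma adjusted p = 0.00394). Epcam, an adhesion molecule of epithelia, was at 26.3 and 21.9, 156 and 213, 27.6 and 17 and 15 and 4.1 in the same order of groups, and Dock1, a guanine nucleotide exchange factor, at 10.1 and 24.3, 132 and 209, 9.9 and 15.4 and 6.41 and 9.32. Dock1 passed the filter on low values through the Wt libraries alone. In these genes the Wt libraries stood apart from the other 6.

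Among higher genes, Fcgr2b, the inhibitory Fc receptor of B cells, was at 1332 and 1238 in Wt and 4164 and 3297 in K198R (log2 fold change 1.53, limma adjusted p = 0.00388). Lta, the cytokine lymphotoxin α, was at 1692 and 1475 in Wt and 4517 and 4234 in K198R (1.47, adjusted p = 0.00545), and Tlr4, the receptor for lipopolysaccharide, at 349 and 373 and 865 and 1150 (1.47, adjusted p = 0.0266). The EV libraries lay at the level of Wt for Fcgr2b (1432 and 1333) and below it for Lta (1116 and 980) and Tlr4 (162 and 124).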
